A study of Mus musculus with 6 samples.

Results

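The mouse lysozyme genes Lyz1 and Lyz2 lie side by side on chromosome 10, and they are described here with 6 genes around them, Cct2, Frs2, Yeats4, Cpsf6, Cpm and Mdm2. The 8 genes were chosen by symbol from a table of 17382 genes, all 8 were found in it, and all 8 passed the filter on low values. They span 659.8 kb. RNA came from myeloid cells grown for 3 days from the marrow of C57BL/6 mice aged 2 months in medium with 10% serum and M-CSF at 40 ng/mL, a growth factor that drives macrophage formation. The 3 libraries labelled knockout carry floxed PD-L1 alleles on both chromosomes together with lysozyme-Cre. The 3 libraries labelled wild type carry the same floxed alleles without Cre and come from littermates. All 6 therefore share the floxed alleles, and no group carries Cre without them, so effects of Cre and of PD-L1 deletion cannot be told apart. How many Cre copies each mouse had, and whether a library is 1 mouse or a pool, is not stated in the labels; p-values measure the spread between these samples.

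Lysozyme is an enzyme that cuts the peptidoglycan of bacterial cell walls. Mice have a pair of genes for it: Lyz2 encodes the M type, made in large amounts by macrophages and neutrophils, and Lyz1 encodes the P type, known from the Paneth cells of the intestine. In the lysozyme-Cre line in common use, the recombinase gene was inserted at the start of the Lyz2 coding sequence, so that the altered allele makes Cre in place of lysozyme M. The genes around the pair serve unrelated functions. Cct2 encodes a subunit of the chaperonin that folds actin and tubulin, Frs2 an adaptor that links fibroblast growth factor receptors to the MAP kinase pathway, and Yeats4 a chromatin reader in histone acetylation and histone exchange complexes. Cpsf6 encodes a factor of mRNA cleavage and polyadenylation, Cpm a membrane carboxypeptidase, and Mdm2 the ubiquitin ligase that keeps p53 low.

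The sequences in front of the pair are shown because the genes are neighbouring copies whose levels differed widely. Each line gives the 250 bases before the transcription start (RefSeq, GRCm38.p6, the same build as mm10; minus strand, 5′ to 3′). Capitals mark bases that do not match the other gene in a gapped alignment. The Lyz2 promoter lies at chr10:117282273-117282522 and that of Lyz1 at chr10:117292869-117293118.
Lyz2: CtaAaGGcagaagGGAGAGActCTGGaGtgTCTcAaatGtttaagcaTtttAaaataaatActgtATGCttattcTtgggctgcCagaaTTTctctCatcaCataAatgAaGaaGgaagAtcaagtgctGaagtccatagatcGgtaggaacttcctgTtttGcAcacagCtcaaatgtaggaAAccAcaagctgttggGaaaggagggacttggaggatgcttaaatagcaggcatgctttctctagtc
Lyz1: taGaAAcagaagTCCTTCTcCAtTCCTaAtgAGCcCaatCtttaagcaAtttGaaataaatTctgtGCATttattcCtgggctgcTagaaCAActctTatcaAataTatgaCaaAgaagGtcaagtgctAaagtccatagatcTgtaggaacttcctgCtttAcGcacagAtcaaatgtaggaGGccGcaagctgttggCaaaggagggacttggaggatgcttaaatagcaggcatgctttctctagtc

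Of the 250 bases, 200 matched, and only 8 of the 100 bases nearest the start differed. The ETS core GGAA, searched on both strands as were all motifs here, occurred 5 times before Lyz2 and 4 times before Lyz1; 93.4% of 32817 promoters of this length held it at least once. The RUNX core ACCACA occurred once before Lyz2, starting 66 bases ahead of the transcription start, and not before Lyz1, where the alignment has mismatches at this place; 14.0% of promoters held it. The letters TTGCNNAA, a C/EBP pattern, and CCAAT each occurred once before Lyz1 and not before Lyz2, against 9.6% and 33.8% of promoters, and TATAAA was in neither, against 12.4%. Apart from TTGCNNAA, whose free letters N allow GGAA within it, none of these motifs contains another. Such matches describe letters in a window and show no binding.

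The transcripts were also alike, which bears on how reads were divided between the genes. In the GENCODE M21 annotation the Lyz2 transcript has 1316 bases and that of Lyz1 1263 bases, each in 4 exons, and 425 of the 447 coding bases (95.1%) were identical. The longest stretch without a difference, 118 bases of coding sequence at positions 355 to 472 of the Lyz2 transcript and 306 to 423 of the Lyz1 transcript, is shown as an example of a read that could come from either gene.
Shared: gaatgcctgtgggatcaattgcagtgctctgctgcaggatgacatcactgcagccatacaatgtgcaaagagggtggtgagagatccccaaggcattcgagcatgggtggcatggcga
Of 1214 windows of 50 bases in the Lyz1 transcript, 195 (16.06%) also occurred in Lyz2. With windows of 100 bases the share was 2.06%. The labels do not say how such reads were counted, so the values of Lyz1, the far less abundant of the pair, are uncertain in this respect.

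The reads assigned to the 17382 genes, as recovered from the values, numbered between 52355659 and 77318131 per library. Reads not assigned to these genes are not included. The libraries did not divide by genotype: the first principal component, with 44.3% of the variance, set knockout 1 and 2 and wild type 3 apart from knockout 3 and wild type 1 and 2, so values within each side are given where they bear on a result. The targeted gene Cd274, which encodes PD-L1, showed no loss with the knockout label over all 6 libraries. It had 19.3, 19.2 and 29.2 TPM in knockout 1, 2 and 3 against 17.9, 15.5 and 23.7 TPM in wild type 1, 2 and 3. Its log2 difference was -0.30 among knockout 1 and 2 and wild type 3, and 0.81 among knockout 3 and wild type 1 and 2. A gene total does not show whether part of the gene was deleted, so all directions here rest on the labels. The most abundant macrophage marker, Cd68, was high in all libraries, at 1900 to 2500 TPM. Over all genes, limma called 0 of 13722 at an adjusted p under 0.05, which is 0%, with 299 genes (2.18%) at an unadjusted p under 0.05; limma-voom on the recovered reads called 0 as well, with 310. The authors' deposited table calls 46 of 17382 genes (0.265%), 42 with a positive fold change (higher in knockout) and 4 with a negative one.

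Every library labelled knockout had less Lyz2 than each wild-type library. The gene lies at chr10:117277541-117282272 on the minus strand. Knockout 1, 2 and 3 had 19101, 19354 and 13232 TPM, and wild type 1, 2 and 3 had 26707, 27493 and 40358 TPM. The groups did not overlap, with knockout 3 the lowest and wild type 3 the highest of the 6. These values rest on 339496 to 1221215 reads per library, so counting error is small beside the spread between libraries. The mean was 17229 ± 3464 TPM against 31519 ± 7665 TPM (SD, n = 3 each), that is 54.7% of the wild-type mean. In bulk samples, fewer cells of a type and less RNA per cell cannot be told apart.

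The log2 difference of Lyz2 was -0.87 ± 0.27 (SE), with a 95% interval of -1.51 to -0.22. It had an unadjusted p of 0.0160 and an adjusted p of 1.0 over all genes (limma), so it did not pass. In the authors' deposited table the log2 fold change is -0.87 with an adjusted p of 0.0345, 1 of the 4 genes (0.023%) called lower. Among all tested genes 5.12% had groups that did not overlap, 2.27% with the knockout libraries lower. Among knockout 1 and 2 and wild type 3 alone the log2 difference was -1.07, and among knockout 3 and wild type 1 and 2 alone it was -1.03. Without both knockout 3 and wild type 3, the extreme libraries, it was -0.495 (limma adjusted p = 0.184). The gene was the most abundant of the table in 5 libraries and ranked 4 in knockout 3.

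The groups overlapped in the markers of macrophages and neutrophils, the cells known for Lyz2, as they did for most genes. Of all tested genes 5.12% had groups that did not overlap. The summed level of 9 macrophage markers was 4545 to 5756 TPM in the libraries labelled knockout and 4838 to 5942 TPM in wild type. For 13 neutrophil and precursor markers it was 7196 to 8343 TPM against 5990 to 8732 TPM, and the groups overlapped for each of these markers. Neutrophil genes were not near 0: S100a9 alone, an abundant calcium-binding protein of neutrophils and monocytes, had 3507 to 4006 TPM against 2877 to 4151 TPM. Ctsd, the lysosomal protease cathepsin D and the most abundant of the other antibacterial genes listed, had 13877 ± 406 against 13804 ± 1060 TPM (SD, n = 3 each). The part of cell composition in the Lyz2 difference was not tested.

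Lyz1 lay higher in every library labelled knockout, the opposite direction to its neighbour. It lies at chr10:117287795-117292868 on the minus strand, 5.5 kb from Lyz2. Its level was 177, 133 and 83.9 TPM in knockout 1, 2 and 3 and 50.6, 51.4 and 78.2 TPM in wild type 1, 2 and 3, from 1356 to 6636 reads. The groups did not overlap, but knockout 3 and wild type 3 lay close together. The mean was 131 ± 47 TPM against 60.1 ± 15.7 TPM (SD, n = 3 each). By the deposited values Lyz1 ranked between 995 and 3893 by TPM, far below Lyz2. Its true level is uncertain, because how reads shared with Lyz2 were counted is not known.

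The log2 difference of Lyz1 was 1.09 ± 0.30 (SE), with a 95% interval of 0.38 to 1.81, an unadjusted p of 0.00901 and an adjusted p of 1.0 (limma). In the authors' deposited table it is 1.13 with an adjusted p of 0.00602, in a table where 0.242% of genes are called higher. Of all tested genes 2.84% had groups that did not overlap with the knockout libraries higher. Within the same 2 sets of libraries it was 0.97 and 0.72. It was 0.84 without knockout 1 and 1.38 without knockout 3, and without both knockout 3 and wild type 3 it was 1.59 and passed (limma adjusted p = 0.0144). In that setting 1496 of 13441 genes passed, and genotype and side of the first component then coincide.

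**Figure D1:**
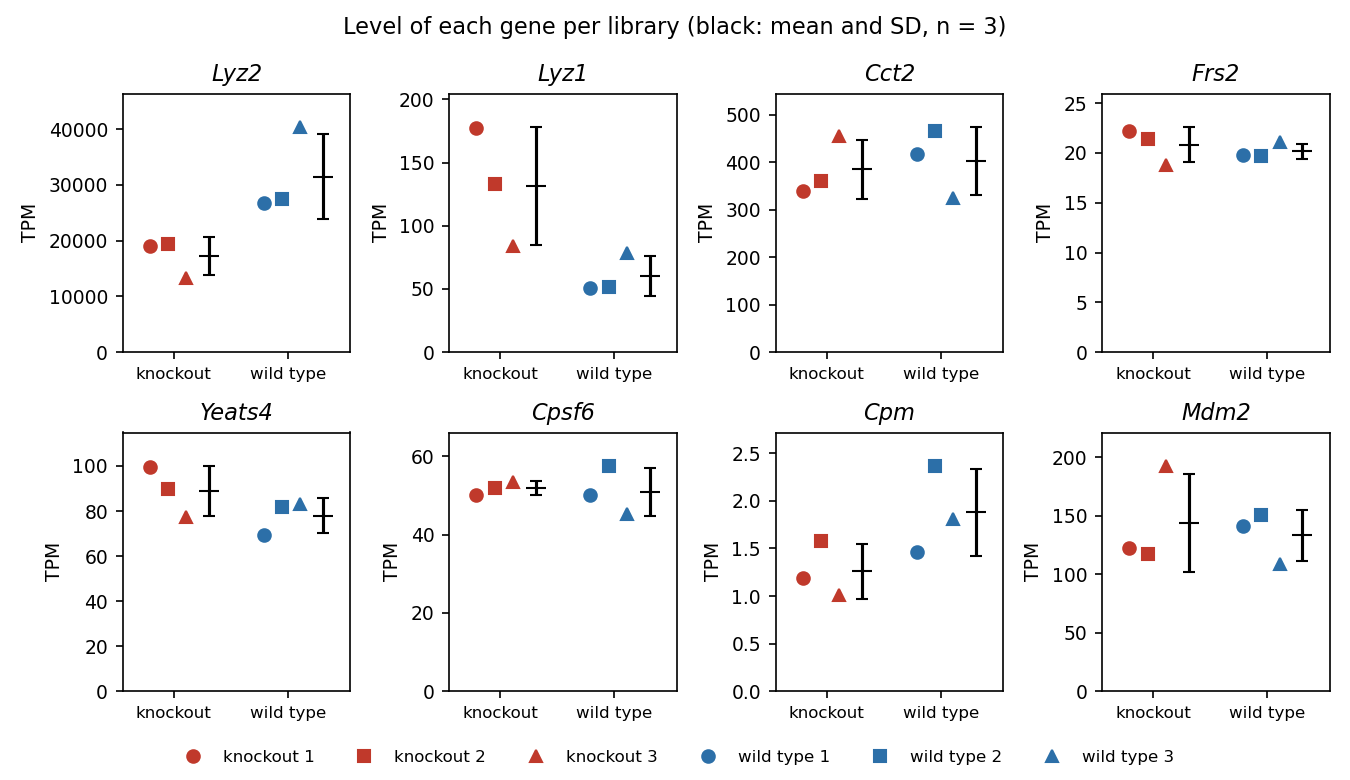
Level in TPM (vertical axes, linear from 0) of the 8 genes in each of the 3 libraries labelled knockout (red) and 3 labelled wild type (blue); black marks give mean and SD. Lyz2 and Lyz1 are the genes whose groups do not overlap, in opposite directions, while the groups overlap for the other 6. Of all tested genes 5.12% have groups that do not overlap.

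The share of Lyz1 in the pair's summed level was nearly constant in wild type and higher in all 3 libraries labelled knockout. Lyz1 made up 0.919%, 0.682% and 0.630% of the summed lysozyme TPM in knockout 1, 2 and 3, and 0.189%, 0.187% and 0.193% in wild type 1, 2 and 3. The mean share was 0.744% ± 0.154 against 0.190% ± 0.003 (SD, n = 3 each), a difference of 0.554 percentage points. The wild-type share hardly moved although Lyz2 ranged from 26707 to 40358 TPM there, because both genes rose in nearly the same proportion. Lyz2 had 528, 535 and 516 times the TPM of Lyz1 in wild type 1, 2 and 3. Knockout 1 and 2, alike in Lyz2, differed in Lyz1. The share was computed after the direction of each gene was known, and 3 against 3 libraries cannot go below an exact permutation p of 0.1, so it is a description without a test.

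In whole reads, before the division by gene length that TPM makes, the share was 1.10% (95% exact Clopper-Pearson interval 1.07% to 1.12%), 0.815% (0.792% to 0.839%) and 0.753% (0.724% to 0.783%) in knockout 1, 2 and 3. In wild type it was 0.226% (0.214% to 0.239%), 0.223% (0.214% to 0.233%) and 0.231% (0.223% to 0.240%). The wild-type intervals overlap one another and lie apart from all 3 knockout intervals, which also lie apart from one another. These intervals cover counting error only. The share in reads is higher than in TPM because the deposited values divide Lyz1 by a length 1.20 times that used for Lyz2. In the GENCODE M21 transcripts Lyz1 is instead the shorter, with 1263 bases against 1316. The shares of windows given above hold for those transcripts and may differ for the gene models that were counted. The part of reads shared between the near-identical transcripts in the level of Lyz1 was not tested.

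**Figure D2:**
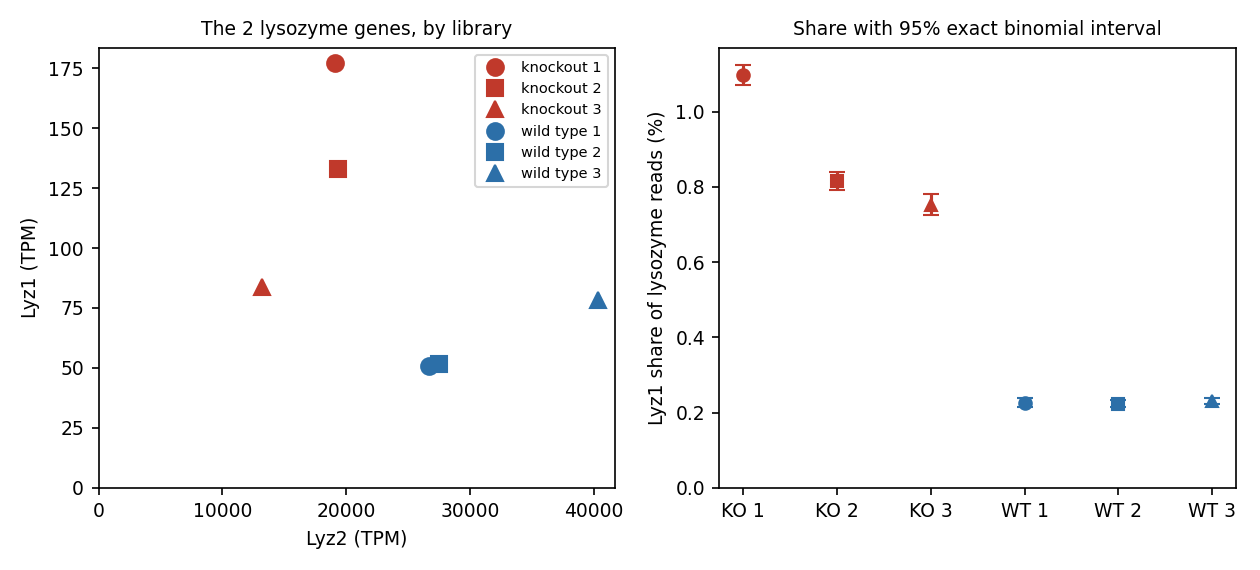
Left, Lyz1 (TPM) against Lyz2 (TPM) in each library; right, the share of Lyz1 among reads of both genes in percent, with 95% exact binomial intervals. The wild-type libraries lie at 0.223% to 0.231% of reads, and the libraries labelled knockout at 0.753% to 1.10%.

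Because Lyz2 fell short of its wild-type level by far more TPM than Lyz1 exceeded its own, the summed lysozyme level also differed. Both genes together held 1.93%, 1.95% and 1.33% of all TPM in knockout 1, 2 and 3 and 2.68%, 2.75% and 4.04% in wild type 1, 2 and 3. The groups did not overlap. Since TPM values share a fixed total, such a gene can shift all others; after rescaling each library without the pair the log2 differences were -0.89 for Lyz2 and 1.07 for Lyz1. The other lysozyme-like gene in the table, Lyzl4, had 7.57 ± 0.76 against 7.63 ± 1.78 TPM (SD, n = 3 each), with overlapping groups. No row was found under the symbols of the other 6 genes of the family list. Mmp7, the single Paneth cell marker of 7 with a row, was at 0 TPM in 5 libraries and 0.038 TPM in knockout 1.

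The 6 neighbours overlapped between the groups, and none passed. Most genes overlap in this way, since 5.12% of all tested genes had groups that did not. Their log2 differences had a median of 0.04, against 0.003 for all tested genes, and ranged from -0.54 for Cpm to 0.18 for Yeats4. With limma 0 of the 8 genes was called (0% of all tested genes), 2 of 8 had an unadjusted p under 0.05 (2.18% of all), and these were Lyz1 and Lyz2. The same 2 are the genes called in the authors' deposited table (0.265% of all). A p above the threshold does not show that a neighbour was unchanged, and its interval gives what the data allow.

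Yeats4 is the nearest neighbour on the side of lower coordinates, 53 kb from Lyz2, at chr10:117215141-117224507 on the minus strand. It had 99.4, 89.7 and 77.2 TPM in knockout 1, 2 and 3 and 69.2, 81.9 and 82.9 TPM in wild type 1, 2 and 3. Knockout 1 was highest and wild type 1 lowest, while knockout 3 fell inside the wild-type range. The log2 difference was 0.18 ± 0.12 (SE; 95% interval -0.11 to 0.48; limma adjusted p = 1.0). Of 20 measured subunits of the NuA4 and SRCAP complexes to which Yeats4 belongs, 11 had a positive and 9 a negative difference, with a median of 0.01, and 0 passed. Yeats4 had the smallest p of these; the most abundant, Morf4l2, had 225 ± 18 against 223 ± 26 TPM (SD, n = 3 each).

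Frs2 lies further out at chr10:117070127-117148474 on the minus strand. Its level was even across the libraries, with 22.2, 21.4 and 18.8 TPM in knockout 1, 2 and 3 and 19.8, 19.7 and 21.04 TPM in wild type 1, 2 and 3. Knockout 3 was the lowest library and knockout 1 the highest. The log2 difference was 0.04 ± 0.10 (SE), with a 95% interval of -0.19 to 0.28, and its sign changed without knockout 1. Among 10 measured receptors, adaptors and partners of the FRS proteins, 6 differences were positive, 4 negative and 0 passed; Grb2, the adaptor that binds phosphorylated Frs2, had 261 ± 31 against 248 ± 33 TPM (SD, n = 3 each).

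Cct2 lies 213.7 kb from Lyz2, at chr10:117050998-117063814 on the minus strand, and was the most abundant of the 6 neighbours. It had 339, 361 and 455 TPM in knockout 1, 2 and 3 and 417, 465 and 324 TPM in wild type 1, 2 and 3. The high libraries were knockout 3 and wild type 1 and 2, which is the division of the first principal component and not of genotype. The log2 difference between genotypes was -0.06 ± 0.17 (SE; 95% interval -0.47 to 0.35) and turned positive without knockout 1 or without wild type 2. The difference between the positive and negative side of that component was 0.38. All 8 subunits of the chaperonin divided the libraries in the same way, with each of knockout 3 and wild type 1 and 2 above each of the others; each had a small negative genotype difference, with a median of -0.06, 0 passed, and their summed level was highest in wild type 2 (3259 TPM) and lowest in wild type 3 (2143 TPM).

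Cpsf6 lies 62.4 kb from Lyz2 on the side of Lyz1, at chr10:117344668-117376973 on the minus strand. It had 50.1, 51.9 and 53.5 TPM in knockout 1, 2 and 3 and 50.2, 57.5 and 45.2 TPM in wild type 1, 2 and 3. All 3 knockout libraries fell inside the range of wild type, in which wild type 2 was the highest and wild type 3 the lowest of the 6. The log2 difference was 0.03 ± 0.10 (SE; 95% interval -0.22 to 0.28), and -0.051 without wild type 3. Of 14 measured factors of mRNA 3′ end processing, 7 were positive and 7 negative, and 0 passed; the most abundant, the endonuclease gene Cpsf3, had 88.4 ± 3.9 against 89.5 ± 4.6 TPM (SD, n = 3 each).

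Cpm, the least abundant member, was the neighbour with the largest difference. It lies at chr10:117629500-117687352, the single member on the plus strand. Its level was 1.19, 1.58 and 1.02 TPM in knockout 1, 2 and 3 and 1.46, 2.36 and 1.81 TPM in wild type 1, 2 and 3, from 128 to 382 reads. The groups overlapped through knockout 2 and wild type 1. The log2 difference was -0.54 ± 0.24 (SE), with a 95% interval of -1.11 to 0.04, an unadjusted p of 0.0642 and an adjusted p of 1.0 (limma). It was -0.36 without wild type 2 and -0.70 without knockout 2.

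The summed level of B cell markers put the 6 libraries in the same order as Cpm did. All 4 markers used had a negative log2 difference, with a median of -0.51 against 0.003 for all genes, 0 passed, and their summed level was 57.5, 80.7 and 47.1 TPM in knockout 1, 2 and 3 and 75.7, 95.2 and 84.4 TPM in wild type 1, 2 and 3, none of the 4 being at 0. By the likeness of pattern over the 6 libraries (log2 scale, Pearson, 10663 genes with a mean of at least 1 TPM), the genes nearest Cpm included Rag1, Pou2af1 and Ebf1, all known from B lineage cells, and Atp1b1, with r of 0.98 to 0.96; these were chosen after their values were seen. The part of B lineage cells in the Cpm difference was not tested. Of 8 measured metallocarboxypeptidases 2 were positive and 6 negative, and 0 passed; Cpd, the most abundant, had 86.6 ± 11.5 against 90.5 ± 14.0 TPM (SD, n = 3 each).

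Mdm2 lies 406.6 kb from Lyz2 at chr10:117688875-117710758 on the minus strand. It had 123, 118 and 192 TPM in knockout 1, 2 and 3 and 141, 150 and 109 TPM in wild type 1, 2 and 3. Knockout 3 stood above all others and, as for Cct2, the high libraries were those of the positive side, by 0.46 on the log2 scale. The genotype difference of 0.09 ± 0.22 (SE; 95% interval -0.43 to 0.61) became -0.14 without knockout 3 and -0.053 without wild type 3. Among 25 measured genes of p53 and its targets 16 differences were positive and 9 negative, with a median of 0.05, and 0 passed. Gdf15, a stress-induced cytokine, had 109, 53.8 and 122 TPM in knockout 1, 2 and 3 and 75.3, 62.9 and 52.8 TPM in wild type 1, 2 and 3. Bax, which promotes cell death and was the most abundant of the list, had 390 ± 11 against 396 ± 19 TPM (SD, n = 3 each).

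**Figure D3:**
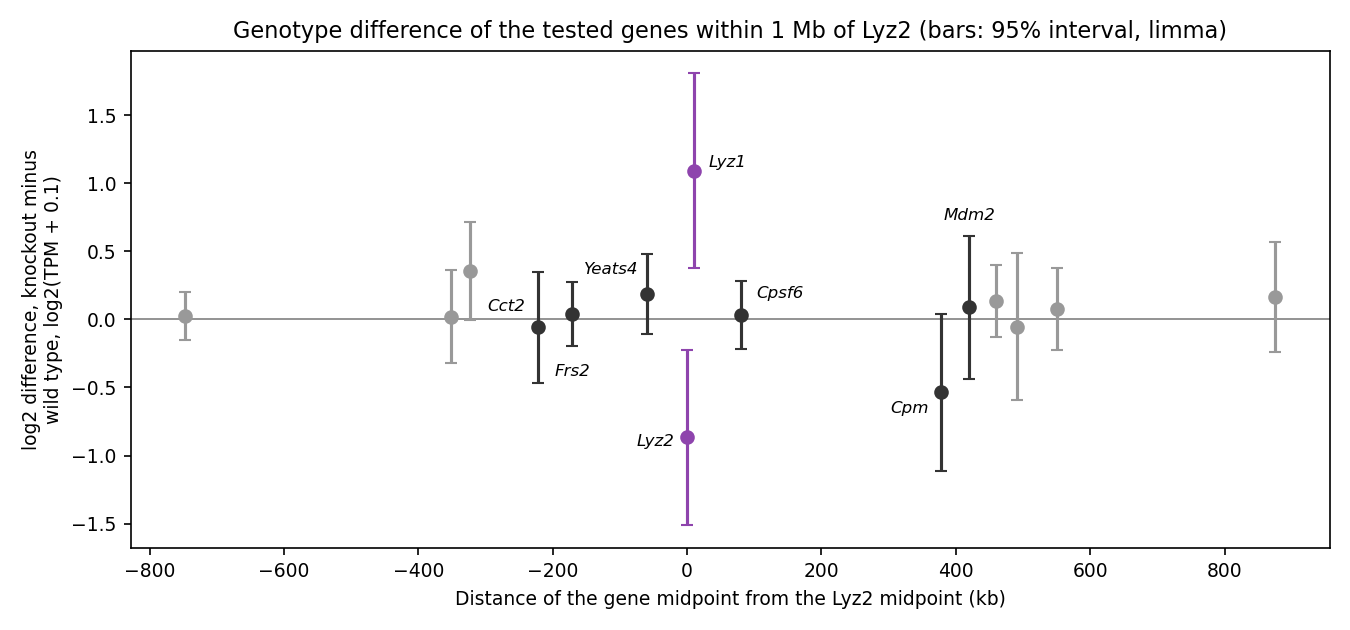
Log2 difference (knockout minus wild type, on log2(TPM + 0.1)) of the 15 tested genes within 1 Mb of Lyz2, against distance between gene midpoints in kb; bars give 95% intervals, purple marks the lysozyme pair, black the other members and grey the remaining genes. The intervals of Lyz1 and Lyz2 exclude 0 on opposite sides, and those of the other 13 genes include it.

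None of the tested genes within 1 Mb of Lyz2 passed the test (limma), where 0 of all 13722 tested genes did. The authors' deposited table calls 2 genes in this window, Lyz1 and Lyz2, against 0.265% of all genes. The table holds 22 genes within 1 Mb of Lyz2, of which 15 were tested, 7 of them in addition to the 8 described. Of these 7, 6 had a positive and 1 a negative difference, from -0.05 to 0.35 on the log2 scale. The most abundant, the small GTPase gene Rap1b, had 953 ± 126 against 902 ± 75 TPM (SD, n = 3 each). Cnot2, a subunit of a deadenylase complex, had 57.3 ± 2.4 against 56.4 ± 1.9 TPM. For 1 of the 7, 4933412E12Rik, named after its values were seen, the groups did not overlap, with 4.47, 5.01 and 5.90 TPM in knockout 1, 2 and 3 and 4.33, 3.64 and 3.95 TPM in wild type 1, 2 and 3 (unadjusted p = 0.0532, adjusted p = 1.0, limma), where 5.12% of all tested genes have such groups.

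**Figure D4:**
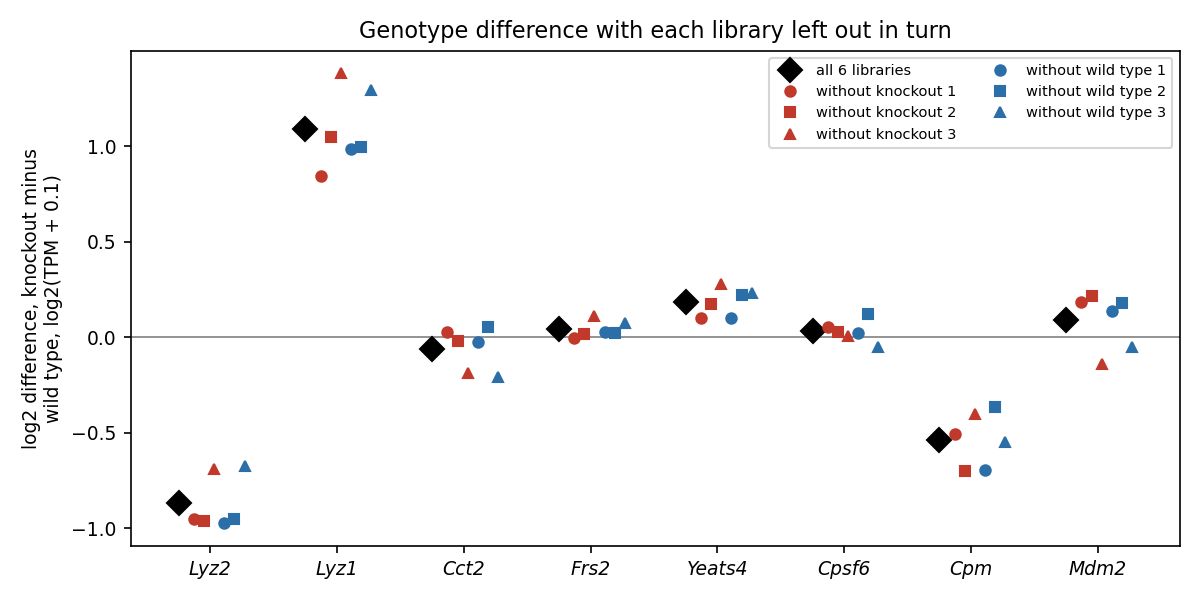
Log2 difference (knockout minus wild type, on log2(TPM + 0.1)) of the 8 genes with all libraries (black) and with each library left out in turn (red and blue symbols). Lyz2 stays between -0.97 and -0.67 and Lyz1 between 0.84 and 1.38, while Cct2, Frs2, Cpsf6 and Mdm2 cross 0.

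Transcription factors and other antibacterial genes of phagocytes gave a mixed background for the pair. Of 14 myeloid transcription factors 11 differences were positive and 3 negative, with a median of 0.04, and 0 passed. Spi1, which encodes PU.1, a known activator of myeloid genes including lysozyme, had 319 ± 26 against 320 ± 20 TPM (SD, n = 3 each). Cebpb, a factor of macrophage activation, had 46.0, 30.7 and 39.3 TPM in knockout 1, 2 and 3 and 17.9, 25.7 and 32.4 TPM in wild type 1, 2 and 3. The progenitor factor gene Myb was lower in each library labelled knockout (11.6 to 12.3 TPM) than in any of wild type (14.1 to 15.1 TPM). Of all tested genes 2.27% had such groups in this direction. The log2 difference of Myb was -0.27 ± 0.09 (SE, limma adjusted p = 1.0). Among the 14 factors 2 had groups that did not overlap, against 5.12% of all tested genes in either direction.

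Among 17 measured antibacterial genes other than lysozyme, 12 differences were positive and 5 negative, with a median of 0.05, and 0 passed. Nos2, the inducible nitric oxide synthase, had 0.135, 0.101 and 0.733 TPM in knockout 1, 2 and 3 and 0.047, 0.016 and 0.035 TPM in wild type 1, 2 and 3. Irg1, the older symbol of Acod1, which makes the antibacterial metabolite itaconate, had 25.1, 32.6 and 89.4 TPM against 16.9, 13.6 and 15.8 TPM. For both the groups did not overlap, as for 2.84% of all tested genes in this direction, and both are called in the authors' deposited table (adjusted p of 0.0101 and 0.00204), as are 0.242% of all genes in this direction. Nos2 passed the filter only through the libraries labelled knockout. No other gene of this list had groups that did not overlap.

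The genes most like each lysozyme gene over the 6 libraries were different ones. For Lyz2 they were Cxxc5, Angpt1, Myb, Itgad and Nlrc3, with Pearson r of 0.96 to 0.95 among 10663 genes. For Lyz1 they were Kctd17, Tbc1d15, Sp4, Tmed3 and Rab10os, with r of 0.99 to 0.97. Likeness in pattern was not likeness in size: Kctd17 ranged from 7.26 to 9.23 TPM and Myb from 11.6 to 15.1 TPM, while Itgad, an integrin subunit gene, ranged from 0.551 to 2.26 TPM. The points share libraries and depth, and the highest of so many correlations over 6 points carries no test. The correlation of Lyz1 with Lyz2 over all 6 libraries was -0.43.

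Markers of T and NK cells, all scarce, had differences of the same direction as Lyz1. All 7 tested markers had a positive log2 difference (median 1.66), 0 passed with limma, 6 had groups that did not overlap with the knockout libraries higher (2.84% of all tested genes), and 4 are called higher in the authors' deposited table (0.242% of all). Some passed the filter only through the libraries labelled knockout, so this count is partly set by the filter. The summed level of 9 markers was 6.13, 8.93 and 9.30 TPM in knockout 1, 2 and 3 and 4.64, 2.87 and 3.94 TPM in wild type 1, 2 and 3. Nkg7, the most abundant, made up a large part of this sum. It had 3.99, 4.58 and 5.32 TPM in knockout 1, 2 and 3 and 3.72, 2.53 and 3.35 TPM in wild type 1, 2 and 3. The part of T and NK cells in the Lyz1 difference was not tested.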

How the data were processed

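The authors deposited TPM values (reads per gene length, scaled to 1000000 per library) for 17382 genes; the unit was read from the values, which sum to 1000000 in each library. Per the file headers the table also holds the authors' log2 fold change, mean log2 CPM, likelihood ratio score, p-value and adjusted p-value. Per the submitters' processing notes the build was mm10 and the tools were edgeR, featureCounts, Subread, TopHat2 2.0.12, FastQC 0.11.2 and Picard 1.127, without roles; read length, annotation and counting options were not given in the sources used here. Whole reads were recovered from ratios of TPM values between libraries (100% of 94034 values within 0.01 of a read); the step was tested on simulated data.

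The libraries of both genotypes were compared on log2(TPM + 0.1) with limma 3.58.1 (R 4.3.3; mean-variance trend, two-sided, Benjamini-Hochberg over all genes, threshold 0.05). A gene entered the test when 3 or more libraries reached 0.1 TPM, which 13722 did. Positive values mean higher in libraries labelled knockout. Alternatives were other pseudocounts, filters and scalings, limma-voom on recovered reads, a term for the replicate number or for the first principal component, and libraries left out. Sequences were compared with Biopython 1.88. The members, the gene lists and the tests were chosen with earlier results of these data known. The genes named are the 8 members, Cd274, at most 6 other genes within 1 Mb of Lyz2, the 5 genes most like Lyz1 and Lyz2 in pattern, and up to 4 genes with the smallest p plus the most abundant of each list; genes outside this rule are marked as chosen after their values were seen. One gene of the B cell list is not reported here and was left out of that list's values.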

Additional observations from a re-analysis of the deposited data

How the results depend on the processing

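With the libraries knockout 3 and wild type 3 left out together, 1496 genes passed where 0 passed with all libraries, Lyz1 passed (log2 difference 1.59), and the differences of Cpsf6 and Mdm2 reversed to -0.074 and -0.28; genotype then coincides with the side of the first component. With a term for that side 0 genes passed, and Frs2 and Cct2 reversed to -0.0085 and 0.077. The log2 difference was then -1.05 ± 0.16 (SE) for Lyz2, 0.84 ± 0.12 (SE) for Lyz1 and 0.27 for Mdm2. With single libraries left out, 0 genes passed each time, and the log2 difference ranged from -0.97 to -0.67 for Lyz2, 0.84 to 1.38 for Lyz1, 0.10 to 0.28 for Yeats4, -0.0058 to 0.11 for Frs2, -0.21 to 0.0535 for Cct2, -0.051 to 0.12 for Cpsf6, -0.70 to -0.36 for Cpm and -0.14 to 0.22 for Mdm2; the difference in the Lyz1 share ranged from 0.466 to 0.611 percentage points. The cause of the sign changes was not tested. Other pseudocounts, filters and scalings and limma-voom on recovered reads changed no sign among the 8 genes. In each of these settings 0 genes passed, so an unchanged call says little. The unadjusted p of Lyz2 ranged from 0.00486 (limma-voom) to 0.0744 (limma, genes with a value above 0 in 1 library). That of Lyz1 ranged from 0.00854 (limma-voom) to 0.0105 (limma, rescaled without the pair). For Cpm it was 0.0435 with limma-voom. Deviations of same-numbered libraries correlated at -0.24, -0.15 and -0.53. With 3 libraries per group these values cannot show whether the replicate numbers mark pairs. With the replicate block 0 genes passed, and 232 had an unadjusted p under 0.05 in place of 299. In that fit the unadjusted p (limma) was 0.0672 for Lyz2 and 0.0323 for Lyz1, against 0.0160 and 0.00901 without the block.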
